A study of Carassius auratus with 9 samples.

Results

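The genes described here were chosen by their read level, which followed the added methionine (Met) without overlap between diets in muscle of Hefang crucian carp (HCC, Carassius auratus). A gene was taken when its mean read count over the 9 libraries was 30 or more and when all libraries of the LA group lay below all of the MA group and these below all of the HA group, or the full reverse. The level was the read count divided by the total count of the library, in counts per 1e6 reads (CPM). Of 76298 genes in the deposited table, 14314 reached the mean count of 30, and 21 of them were ordered in this way. In 20 genes the order was LA < MA < HA (0.14% of the 14314), and in 1 gene it was HA < MA < LA (0.00699%). Because all libraries and all diet contrasts were used to choose these genes, their levels are a description and no test is given on them.

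Muscle was taken from fish fed for 8 weeks, and poly(A)-enriched RNA was sequenced from 3 libraries per diet. By the methods of the paper, all fish were fasted and then anesthetized before dissection, so the levels are not those of freshly fed fish. The LA group received a commercial basal feed with no added Met or lysine (Lys). The MA group received this feed with 1.7% Met and 3.4% Lys added, and the HA group received it with 3.4% Met and 3.4% Lys added. All groups shared the basal feed, so LA was not free of Met. Added Met and added Lys cannot be told apart in the step from LA to MA, and the step from MA to HA changed Met alone. The methods describe the libraries as biological replicates from fish kept in tanks. How many fish stand behind a library, and at what time of day muscle was taken, is not given in the sources used here.

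Met is an essential amino acid for fish, used to build protein and, as S-adenosylmethionine, as the donor of methyl groups. White muscle of carp consists mostly of fast fibres, whose thin filaments carry actin, tropomyosin and proteins that set filament length, while vessels, connective tissue, nerve and fat make up the rest. The goldfish lineage passed through a whole genome duplication, so most genes are present as several close copies, and the copies of an ordered gene are given beside it.

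Total counts per library ranged from 13962770 to 17177610. The 20 most abundant genes held 48.5% to 55.9% of the reads of a library, so that CPM of all other genes depended on how much these few genes took. The median of log2 (HA / LA) over the 14314 genes was 0.17 by library total, and 0.021 after TMM scaling, which sets the libraries level by the bulk of their genes. Levels below are by library total and include this shift, and the ratio of HA to LA of each ordered gene described is given on both scales. Libraries LA1 and HA2 stand apart from their labels in that they resembled each other more than any other pair did, although they came from the diets at the ends of the order. The median absolute log2 ratio of the 14314 genes between them was 0.184, against 0.263 to 0.542 in the other pairs. Library 3 also lay between libraries 1 and 2 in 67.2% of genes in LA, 59.5% in MA and 67.3% in HA. By the mapping statistics of the paper, the share of reads placed on the genome was lowest in LA1, MA2 and HA2. It was highest in LA2, MA1 and HA1, and LA3, MA3 and HA3 had middle values. Libraries of different diets thus went together in this share, LA1, MA2 and HA2 among them. By the median absolute log2 ratio, however, MA2 stood at 0.445 from LA1 and at 0.422 from HA2, against 0.184 between LA1 and HA2. Whether the mapped share bears on the likeness of libraries or on the levels below was not tested. Skeletal muscle fibre markers, which define the labelled tissue, summed to 387600 to 440200 CPM in the 9 libraries. Genes of the slow and cardiac sarcomere summed to 364 CPM in MA2 and 164 in MA3, but to 2.41 to 11.9 CPM in the other libraries. The part of this difference in the levels below was not tested. In bulk tissue, fewer cells of a type and less RNA per cell cannot be told apart.

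**Figure D1:**
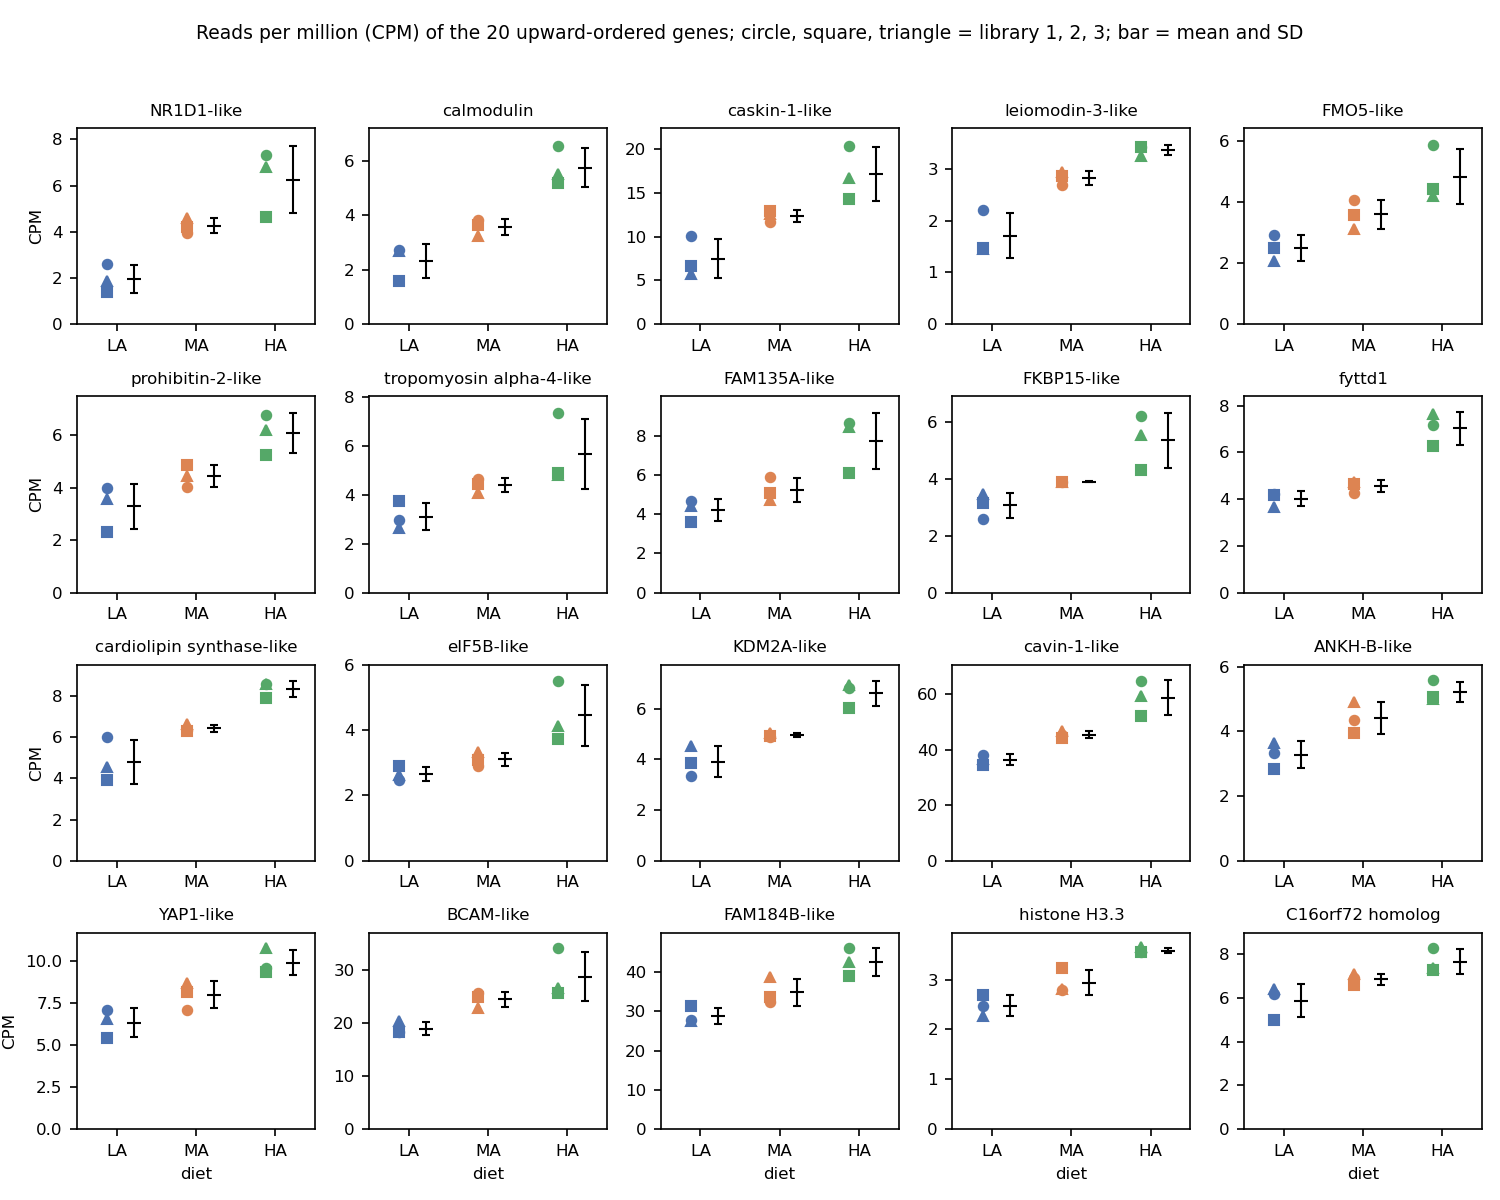
CPM of each of the 20 upward-ordered genes (vertical axes from 0) by diet, with circles, squares and triangles for libraries 1, 2 and 3 and black bars for the mean and SD of 3 libraries. In each gene no LA point reaches an MA point and no MA point reaches an HA point, often by a narrow margin.

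The upward-ordered genes were of modest abundance. Their mean counts had a median of 74.3 (87.9 in all 14314 genes), and their FPKM, which also divides by gene length, ran from 0.749 to 14.9 with a median of 1.87 (2.07 in all). All 21 ordered genes together lay on 15 chromosomes and, for 3 members, on unplaced scaffolds of the goldfish assembly ASM336829v1. In the upward-ordered genes the log2 ratio of mean CPM in HA to LA ran from 0.38 to 1.68 with a median of 0.80. After TMM scaling it ran from 0.23 to 1.5 with a median of 0.65. All 20 were above the median of all genes on either scale. The rule itself put HA above MA and MA above LA in each of them, so nothing is read from their ratios beside those of all genes. The step from LA to MA had a median log2 ratio of 0.36 and the step from MA to HA one of 0.40 (0.26 and 0.34 after TMM scaling). In all genes the same steps were 0.087 and 0.083 (-0.022 and 0.038).

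Among the upward-ordered genes the largest ratio belonged to a gene of the circadian clock. LOC113046710 (chromosome 28, 9113568 to 9120872) encodes a nuclear receptor subfamily 1 group D member 1-like protein (NR1D1, or Rev-erb alpha), known in mammals as a haem-binding repressor that closes a feedback loop of the clock and also acts on muscle metabolism. Its level was 2.59, 1.41 and 1.86 CPM in the LA libraries, 3.96, 4.23 and 4.59 in MA and 7.33, 4.62 and 6.82 in HA. HA2 was the lowest HA library and exceeded the highest MA library, MA3, by 0.027 CPM (73 against 72 reads in libraries of unequal size). The group means were 1.95 ± 0.594, 4.26 ± 0.319 and 6.26 ± 1.44 CPM (SD, n = 3), a 3.20-fold difference between HA and LA (log2 1.68, and 1.5 after TMM scaling). With the reads of a diet pooled, the level was 1.96 CPM in LA (95% Poisson interval 1.58 to 2.41), 4.25 in MA (3.68 to 4.89) and 6.21 in HA (5.502 to 6.98), intervals that cover counting error only. The model overlaps LOC113046712 on the other strand, which had 38 reads in all, and the strand setting of the counting is not given in the sources used here.

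LOC113044410 was the only other copy with a mean count of 30 or more. It stood at 8.46, 0.321 and 4.27 CPM in LA, 2.68, 2.58 and 2.23 in MA and 4.96, 7.15 and 5.94 in HA. MA was lowest in this copy by its mean, 2.497 CPM, and the LA libraries spanned the values of both other diets. Among the 50 genes of the circadian list with a mean count of 30 or more, the NR1D1-like gene was the 1 ordered member, group means followed LA < MA < HA in 10 (20%, against 24.4% of all genes) and the reverse in 1. The median log2 (HA / LA) of the list was 0.31 by library total and 0.15 after TMM scaling, and no gene of it was called by edgeR at an adjusted p under 0.05 between any diets. Of all tested genes, edgeR called 0.0835% for MA against LA, 0% for HA against LA and 0.0543% for HA against MA. At these shares nothing is read from the absence of calls. Period 2-like LOC113045318, which encodes a repressor of the clock, had means of 28.1 ± 11.9 CPM in LA, 29.3 ± 2.94 in MA and 54.7 ± 3.78 in HA. In the other period 2-like gene over the minimum, LOC113113592, MA was lowest, with means of 4.75, 2.97 and 6.59 CPM. Other clock genes had MA highest, such as period 1-like LOC113051396 (8.46, 14.4 and 12.8 CPM) and NR1D2-like LOC113115669 (50.12, 98.15 and 90.65). None of these named clock genes was a member.

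Further genes of signalling and transcription were ordered. The calmodulin gene LOC113064143 (chromosome 46, 10545257 to 10549068) encodes the calcium sensor that activates kinases, phosphatases and channels of the fibre. It had 2.71, 1.60 and 2.69 CPM in LA, 3.84, 3.65 and 3.25 in MA and 6.56, 5.19 and 5.54 in HA, with means of 2.34 ± 0.633, 3.58 ± 0.300 and 5.76 ± 0.712. The log2 ratio of HA to LA was 1.30, and 1.14 after TMM scaling. HA1 was highest and LA2 lowest, and the narrower of the 2 steps, 0.54 CPM between LA1 and MA3, was the widest among all ordered genes as a ratio (log2 0.262). This was a minor calmodulin gene, as another one, LOC113057229, had 172 CPM in LA, 148 in MA and 147 in HA. Of its 12 other copies over the minimum, 2 had means in the order LA < MA < HA, 3 in the reverse order, and the median log2 (HA / LA) of the copies was 0.10 (-0.03 after TMM scaling, where 5 were above 0). LOC113095975 was one of the 2, with means of 37.7, 50.0 and 61.0 CPM, but HA2 stood at 33.7 CPM in it, below every MA library.

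A YAP1-like gene (LOC113118470, chromosome 18, 12045124 to 12075011), coding for a coactivator that the Hippo kinases keep out of the nucleus, had 7.07, 5.39 and 6.54 CPM in LA, 7.10, 8.17 and 8.68 in MA and 9.56, 9.37 and 10.7 in HA. LA1 and MA1 were separated by 0.031 CPM, and log2 (HA / LA) was 0.64 (0.49 after TMM scaling). The other YAP1 gene, LOC113061663, had means of 17.0, 17.0 and 19.02 CPM.

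On the chromatin side, a lysine-specific demethylase 2A-like gene (KDM2A, LOC113113665, chromosome 14, 12750587 to 12762501) codes for an enzyme that removes methyl groups from histone H3. Its libraries held 3.35, 3.85 and 4.55 CPM in LA, 4.89, 4.94 and 5.04 in MA and 6.84, 6.02 and 6.96 in HA, with close agreement within MA, and log2 (HA / LA) was 0.75 (0.61 after TMM scaling). It was the 1 ordered gene among 107 genes of histone and DNA methylation over the minimum, of which 38 had means in the order LA < MA < HA (35.5%, against 24.4% of all genes) and 7 in the reverse. The median log2 (HA / LA) of this list was 0.16, and 0.00 after TMM scaling, close to the medians of all genes, and none of it was called by edgeR. As edgeR called 0.0835% of all tested genes or fewer in each comparison, nothing is read from the absence of calls. By library total the 6 other KDM2A and KDM2B copies had HA to LA ratios on both sides of 1. They ran from log2 -0.74 in LOC113070766 (3.52, 2.58 and 2.11 CPM by diet) to 0.14 in LOC113073855 (5.54, 6.98 and 6.12). After TMM scaling the log2 ratio was above 0 in 0 of the 6, with a median of -0.27.

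The histone H3.3 gene LOC113049692 (chromosome 3, 19070513 to 19072405) encodes the H3 variant that is laid down outside replication. It had 2.46, 2.70 and 2.27 CPM in LA, 2.79, 3.22 and 2.81 in MA and 3.56, 3.54 and 3.65 in HA. The spread within a diet was small here, and the step from LA2 to MA1 was 0.098 CPM, or 1.69 reads. Its log2 (HA / LA) was 0.53 by library total and 0.39 after TMM scaling. Of 9 other H3.3 copies over the minimum, 3 had means in the order LA < MA < HA, among them LOC113058837 with 6.56, 8.14 and 9.70 CPM. HA was above LA by the mean in 4 of the 9 (2 after TMM scaling), and LOC113083289 went the other way with 7.48, 5.77 and 5.501 CPM.

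Several ordered genes encode proteins of actin filaments and of scaffolds. A leiomodin-3-like gene (LOC113075744, unplaced scaffold, 44104 to 52102) belongs to the proteins that start actin filaments in the skeletal muscle sarcomere. Its 3 LA libraries had 2.21, 1.48 and 1.45 CPM, the MA libraries 2.68, 2.87 and 2.94 and the HA libraries 3.42, 3.42 and 3.24. LA1 stood above LA2 and LA3, MA and HA were each tight, and the means were 1.71 ± 0.432, 2.83 ± 0.133 and 3.36 ± 0.103 CPM (log2 0.97 between HA and LA, and 0.82 after TMM scaling). At a mean count of 40.2 it was the ordered gene nearest to the minimum. The main leiomodin-3-like gene, LOC113041060, showed the same order of means at a far higher level, 35.3, 47.2 and 66.8 CPM. In that gene LA1 (48.6) overlapped MA (37.9 to 57.8) and HA2 (56.6) overlapped MA2 (57.8), so it was not a member.

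Caskin-1-like LOC113106948 (chromosome 8, 2148758 to 2180488), named for a scaffold that binds the kinase CASK at synapses in mammals, was among the more abundant members with a mean count of 188. It had 10.04, 6.61 and 5.79 CPM in LA, 11.6, 12.9 and 12.6 in MA and 20.4, 14.3 and 16.7 in HA. The group means of 7.48 ± 2.25, 12.4 ± 0.648 and 17.1 ± 3.06 CPM gave a 2.29-fold difference between HA and LA (log2 1.2, and 1.02 after TMM scaling). LA1 was the LA library nearest to MA, and HA2 the HA library nearest to MA. Its copy LOC113044636 had 2.26, 2.23 and 2.51 CPM. Nerve and Schwann cell markers as a list summed to 324 to 340 CPM in LA, 439 to 691 in MA and 373 to 397 in HA, an order with MA at the top, and their part in the result was not tested.

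The tropomyosin alpha-4 chain-like gene (LOC113040162, chromosome 22, 25454091 to 25467744), a tropomyosin that in mammals binds actin outside the sarcomere, had 2.97, 3.72 and 2.62 CPM in LA, 4.66, 4.44 and 4.08 in MA and 7.33, 4.88 and 4.79 in HA. HA1 was well above MA, whereas HA3 exceeded MA1 by 0.14 CPM, and log2 (HA / LA) was 0.87 (0.71 after TMM scaling). None of its 4 copies over the minimum, which include a gene named tropomyosin alpha-1 chain-like, had means in the same order. FK506-binding protein 15-like LOC113107301 (chromosome 8, 12357796 to 12376942), known in mammals to link early endosomes to actin, had 2.59, 3.15 and 3.44 CPM in LA, 3.90, 3.87 and 3.89 in MA and 6.21, 4.30 and 5.54 in HA. Its MA libraries were nearly equal, and HA exceeded LA by log2 0.81 (0.65 after TMM scaling).

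Further members belong to the plasma membrane. Caveolae-associated protein 1-like LOC113046926 (cavin-1, chromosome 28, 14460251 to 14477012) coats the small membrane pits that are dense in muscle, fat and endothelium, and it had the highest mean count among the members, 714. It stood at 38.2, 34.5 and 36.6 CPM in LA, 45.4, 44.2 and 46.5 in MA and 64.7, 52.1 and 59.4 in HA. The diets were separated by 5.99 CPM (83.7 reads) at the first step and 5.59 CPM (88.3 reads) at the second, the widest gaps in reads of any member. The means of 36.4 ± 1.83, 45.4 ± 1.17 and 58.7 ± 6.33 CPM correspond to a 1.61-fold difference between HA and LA (log2 0.69, and 0.53 after TMM scaling). Its 3 copies were about as abundant and not ordered: LOC113043408 had 66.0, 52.7 and 95.7 CPM, LOC113042175 had 42.5, 49.9 and 45.7, and LOC113066125 had 54.6, 50.9 and 55.3.

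Beside cavin-1, adipocyte markers summed to 76.6 to 80.4 CPM in LA, 80.9 to 116 in MA and 78.95 to 122 in HA. All MA libraries, HA1 and HA3 lay above the LA range and HA2 within it, and 1 of the 25 matched genes had no read. Smooth muscle and vessel markers overlapped between all diets, at 366 to 575, 374 to 597 and 426 to 534 CPM. Erythrocyte markers summed to 494 to 727 CPM in LA, 755 to 906 in MA and 491 to 1220 in HA, with HA2 lowest and HA1 highest. Leukocyte markers and those of skin and epithelium overlapped between all diets. The part of any of these cell types in the result was not tested.

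A basal cell adhesion molecule-like gene (BCAM, LOC113116730, chromosome 16, 27732570 to 27778717), a laminin receptor, had 18.2, 18.3 and 20.3 CPM in LA, 25.6, 24.9 and 22.8 in MA and 34.0, 25.6 and 26.5 in HA. HA2 and MA1 differed by 0.021 CPM, the smallest step of all members as a ratio (log2 0.001), while LA was apart from both. The ratio of HA to LA was log2 0.60, and 0.45 after TMM scaling. In the copy LOC113059717 the libraries of the diets overlapped, at 26.8 to 66.2 CPM in LA, 47.8 to 55.9 in MA and 24.9 to 85.4 in HA, and log2 (HA / LA) was 0.16 (-0.02 after TMM scaling). The ANKH homolog B-like gene (LOC113066035, chromosome 49, 2517910 to 2538322), for a transporter that in mammals releases pyrophosphate precursors from cells, had 3.35, 2.82 and 3.65 CPM in LA, 4.37, 3.94 and 4.91 in MA and 5.58, 5.06 and 5.00 in HA. MA3 came within 0.083 CPM of HA3, and the log2 ratio of HA to LA was 0.67 (0.52 after TMM scaling).

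Mitochondrial proteins were encoded by a pair of members. Prohibitin-2-like LOC113045750 (phb2a, chromosome 27, 18692145 to 18706071) forms ring complexes in the inner membrane. It had 3.98, 2.31 and 3.58 CPM in LA, 4.02, 4.87 and 4.47 in MA and 6.77, 5.26 and 6.21 in HA, so that LA1 and MA1 were within 0.039 CPM while HA was apart (log2 0.89 against LA, and 0.72 after TMM scaling). The main prohibitin-2-like copy, LOC113050584, had means of 34.7, 35.9 and 34.9 CPM. Cardiolipin synthase-like LOC113071783 (unplaced scaffold, 206931 to 210801) makes the lipid that marks that membrane, and had 6.00, 3.92 and 4.55 CPM in LA, 6.35, 6.30 and 6.64 in MA and 8.59, 7.91 and 8.57 in HA. Its MA and HA libraries were tight and 1.28 CPM apart, and LA1 was 0.30 CPM below MA2. In this gene log2 (HA / LA) was 0.79, and 0.64 after TMM scaling.

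A flavin monooxygenase 5-like gene (FMO5, LOC113121144, chromosome 20, 20213996 to 20218712), of a family that oxidises nitrogen and sulfur compounds, had 2.90, 2.504 and 2.07 CPM in LA, 4.08, 3.58 and 3.13 in MA and 5.86, 4.43 and 4.19 in HA. In each diet library 1 was highest and library 3 lowest. The steps were 0.22 and 0.11 CPM wide, and HA was log2 0.95 above LA (0.79 after TMM scaling).

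Members of RNA export and translation had most of their difference at the second step. The gene fyttd1 (UAP56-interacting factor, chromosome 2, 27648127 to 27654793), for an adaptor of mRNA export, had 4.23, 4.17 and 3.65 CPM in LA, 4.25, 4.66 and 4.72 in MA and 7.19, 6.27 and 7.63 in HA. LA1 and MA1 were 0.020 CPM apart, whereas HA2 was 1.55 CPM above MA3, and log2 (HA / LA) was 0.81 (0.65 after TMM scaling). Eukaryotic translation initiation factor 5B-like LOC113098227 (unplaced scaffold, 605756 to 622343), which joins the ribosomal subunits at the start codon, had 2.46, 2.89 and 2.62 CPM in LA, 2.91, 3.08 and 3.32 in MA and 5.51, 3.73 and 4.12 in HA. Only 17.4% of the difference between LA and HA was reached in MA in fyttd1 and 24.8% in the eIF5B-like gene, whose log2 (HA / LA) was 0.75 (0.59 after TMM scaling). The eIF5B-like copy LOC113064869 was more abundant, with means of 11.7, 15.5 and 15.7 CPM, so its difference lay mostly at the first step. The copy LOC113073991 had 2.59, 2.13 and 3.29 CPM.

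The other ordered genes code for proteins named only by family. FAM135A-like LOC113112279 (chromosome 13, 383168 to 406291) had 4.67, 3.60 and 4.41 CPM in LA, 5.88, 5.08 and 4.72 in MA and 8.66, 6.08 and 8.44 in HA. FAM184B-like LOC113044106 (chromosome 26, 3865976 to 3898582) was more abundant, at 27.8, 31.3 and 27.6 CPM in LA, 32.2, 33.6 and 38.8 in MA and 46.1, 38.9 and 42.7 in HA, and it overlaps a gene on the other strand that had 28 reads. HA2 was the lowest HA library in both. Their log2 ratios of HA to LA were 0.87 and 0.56 by library total and 0.70 and 0.41 after TMM scaling. The C16orf72 homolog LOC113043124 (chromosome 3, 2325648 to 2330658) had 6.19, 5.01 and 6.41 CPM in LA, 6.93, 6.59 and 7.08 in MA and 8.31, 7.28 and 7.36 in HA. It had the smallest ratio of HA to LA among the members, 1.30 (log2 0.38, and 0.23 after TMM scaling).

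The ordered genes reached a median of 44.6% of their difference between LA and HA at MA (39.1% after TMM scaling). The share ran from 17.4% in fyttd1 to 67.6% in the leiomodin-3-like gene, and from 8.6% to 68.4% after TMM scaling. On the log2 scale the step from MA to HA was the larger one in 10 of the 20 genes by library total and in 12 after TMM scaling. The NR1D1-like gene had the largest first step, log2 1.12, followed by 0.55 from MA to HA (1.01 and 0.49 after TMM scaling). The calmodulin gene had the largest second step, log2 0.69, after a first step of 0.62 (0.63 and 0.51 after TMM scaling).

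**Figure D2:**
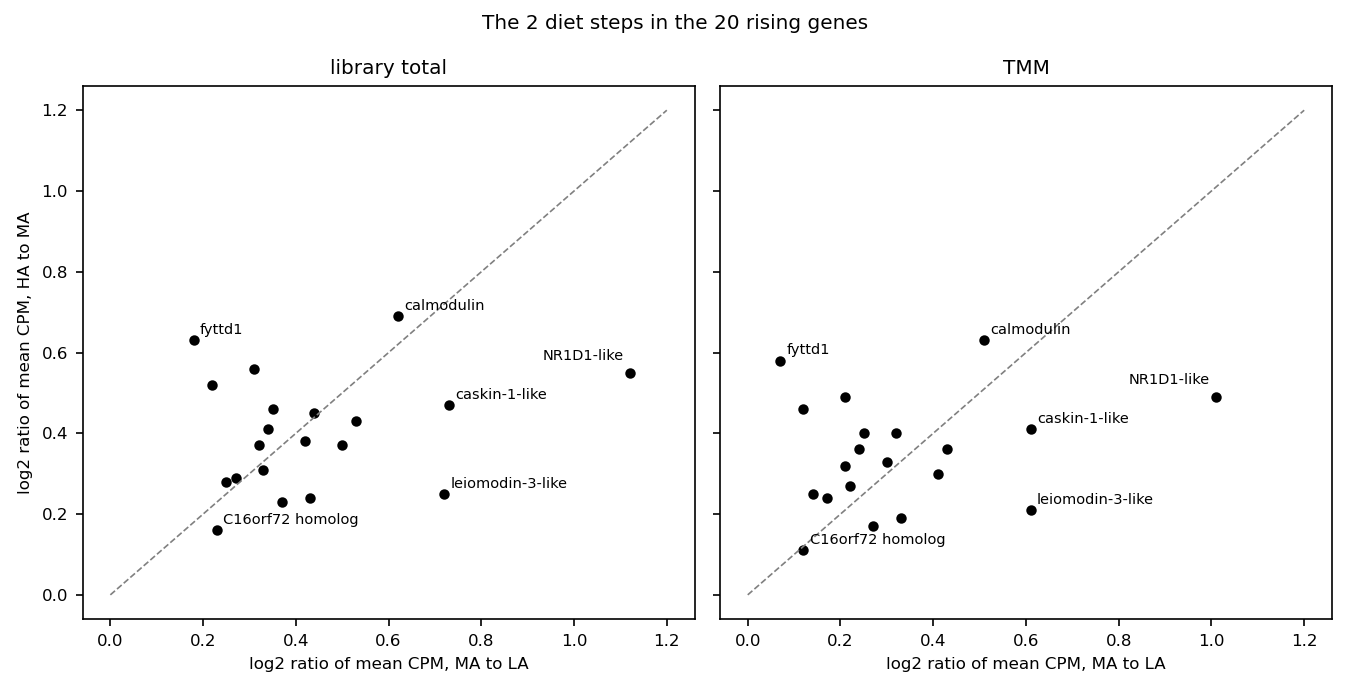
Log2 ratio of mean CPM of HA to MA against that of MA to LA for the 20 upward-ordered genes, by library total (left) and after TMM scaling (right), with 1 point per gene and a dashed line where both steps are equal. The NR1D1-like, caskin-1-like and leiomodin-3-like genes lie furthest below the line, with the larger step from LA to MA, and fyttd1 lies above it at 0.18 and 0.63 (left).

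The order rested on small numbers of reads. In 7 of the 20 upward-ordered genes a gap between diets was under 1 read at one of the steps, and in 15 it was under 5 reads. The 95% Poisson intervals of the nearest libraries overlapped at both steps in all 20. With the reads of each diet pooled, the intervals of LA and HA were apart in all 20, those of LA and MA in 12, those of MA and HA in 14, and both steps were apart in 8. These 8 were the NR1D1-like, calmodulin, caskin-1-like, cardiolipin synthase-like, cavin-1-like, YAP1-like, BCAM-like and FAM184B-like genes. Pooled intervals take no account of the spread between libraries. The rule had already put the diets in this order, and no share over all genes is given. The pooled intervals thus describe counting error and are no support for the order.

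HA1 was the highest HA library in 16 of the 20 upward-ordered genes and HA2 the lowest in 16. In all 14314 genes HA1 was highest in 53.1% and HA2 lowest in 57.4%. After TMM scaling, HA1 and HA2 were each the highest HA library in 9 of the 20. LA1 was the highest LA library in 11. With both LA1 and HA2 left out, 489 genes were ordered upward and 78 downward. A full order is easier to meet with fewer libraries, and no other pair was left out for comparison. Left out alone, HA2 gave 238 upward-ordered genes and LA1 148, beside 30 to 69 for each other library. With libraries 1 and 2 of each diet only, 92 were ordered upward and 7 downward. The cause of these counts was not tested. Between HA2 and LA1, the pair most alike over all genes, the log2 ratio of the upward-ordered genes ran from 0.23 to 0.94 with a median of 0.55. The rule itself puts HA2 above LA1 in each of them, so nothing is read from the sign.

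The set of ordered genes changed with the scaling of the libraries. After TMM scaling 4 of the 20 upward-ordered genes kept a full order, which were the NR1D1-like, calmodulin, caskin-1-like and leiomodin-3-like genes. With the size factors of DESeq2 (RLE) the first 3 of these kept it, while in the leiomodin-3-like gene the narrower step was log2 -0.006. With the 20 most abundant genes left out of the library total, the NR1D1-like gene lost its order (narrower step log2 -0.041). The calmodulin, caskin-1-like and leiomodin-3-like genes kept theirs under that total. In the other 16 genes the means still followed the diets after TMM scaling, but single libraries overlapped, with a narrower step down to log2 -0.242 in the cardiolipin synthase-like gene. Under TMM 12 genes (0.0838%) were ordered upward and 3 (0.021%) downward in all, and under RLE 10 (0.0699%) and 3. Those that were not members by library total included a heat shock factor 2-like gene (LOC113071848, log2 0.70), a myosin-X-like gene (LOC113120749, log2 0.92), a GSK-3 beta-like gene (LOC113059987, log2 0.67) and, downward, a DUSP8-like gene (LOC113061900, log2 -1.18).

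**Figure D3:**
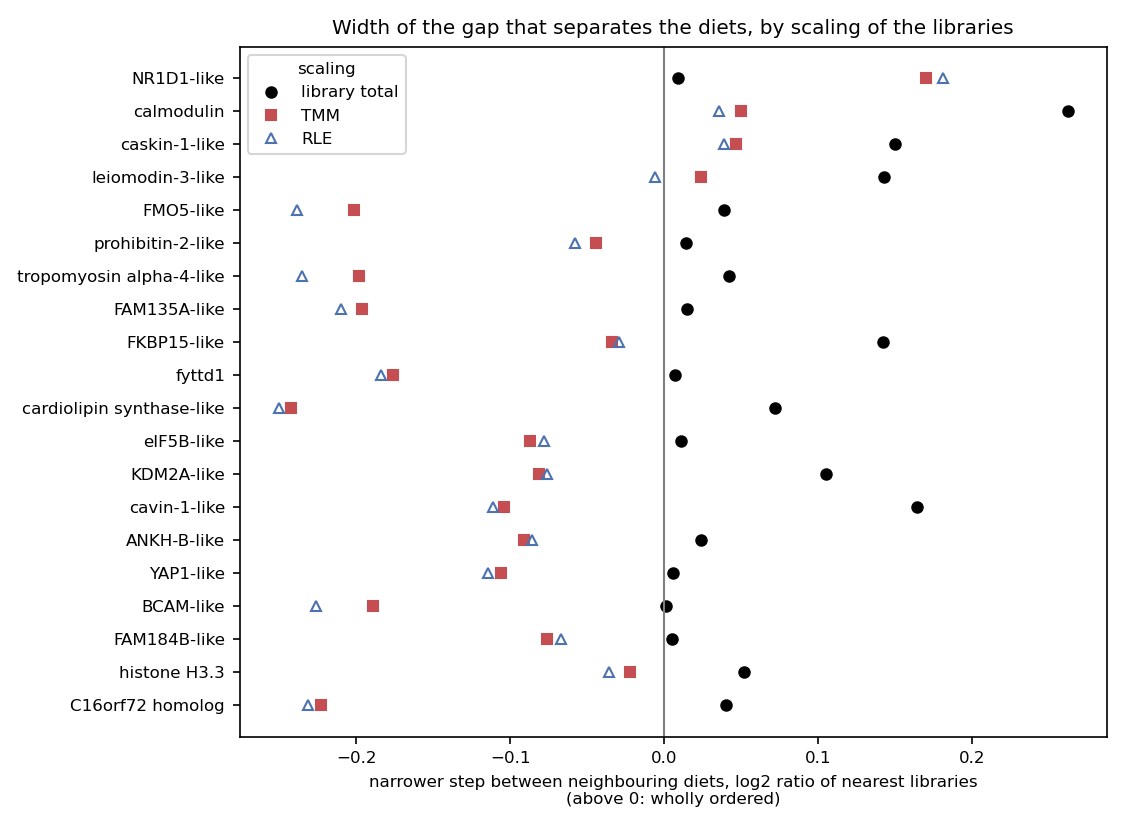
Narrower of the 2 steps between neighbouring diets for each of the 20 upward-ordered genes, as log2 ratio of the nearest libraries, with black circles for library total, red squares for TMM and blue triangles for RLE scaling. Values above 0 mean that the diets do not overlap; by library total all 20 are above 0 (up to 0.262), while under TMM only the 4 uppermost genes are.

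Genes with MA in the middle were fewer than those with another diet in the middle. By library total 1808 genes (12.6%) had all MA libraries above all LA libraries and 1751 (12.2%) had all HA above all MA, and 20 had both. In the downward direction these numbers were 841 (5.88%), 873 (6.1%) and 1. Among genes whose 3 diets did not overlap at all, MA lay in the middle in 21, LA in 65 and HA in 78. After TMM scaling the numbers were 15, 54 and 84, and with RLE 13, 52 and 78. By library total 57 genes had the order MA < LA < HA and 53 the order LA < HA < MA. Under TMM these were 37 and 50 genes, and under RLE 33 and 47. Only with MA in the middle must all MA libraries lie between LA1 and HA2, the pair most alike over all genes. The orders with another diet in the middle were not counted without that pair. Nothing is thus read from these numbers on how often levels followed the added Met.

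**Figure D4:**
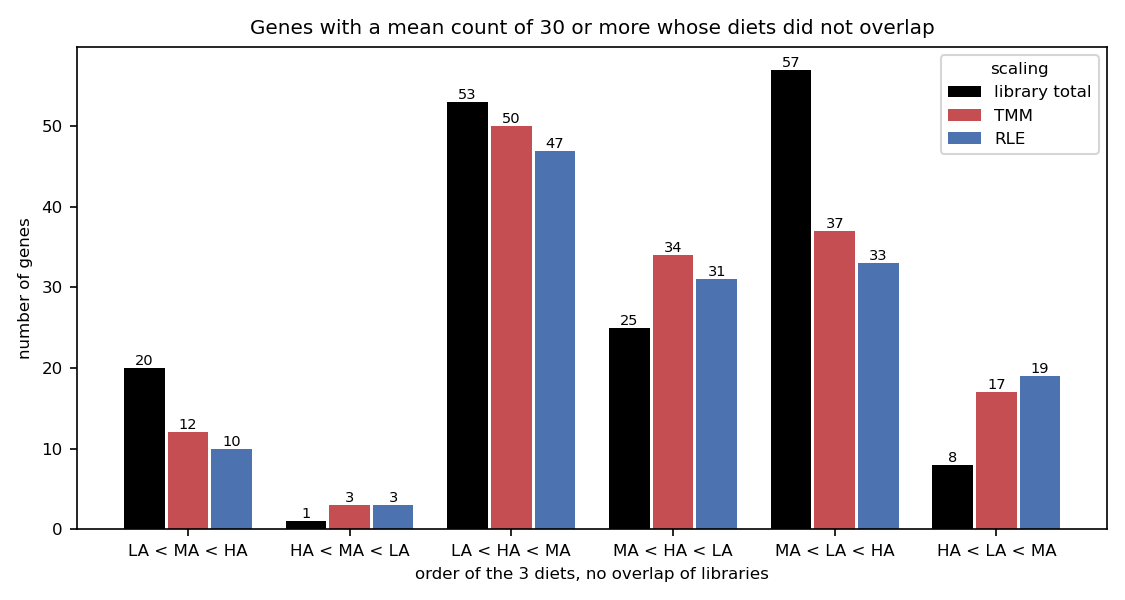
Number of genes with a mean count of 30 or more whose diets did not overlap, by the order of the 3 diets on the horizontal axis and by scaling (black, library total; red, TMM; blue, RLE). The order LA < MA < HA holds 20, 12 and 10 genes, fewer than the orders LA < HA < MA and MA < LA < HA under each scaling.

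The members had 52 other copies with a mean count of 30 or more, found by the same product name or KEGG number. Some of these copies carry the name of a related gene, such as KDM2B beside KDM2A. None of the 52 was ordered, where 0.147% of all genes were, and at that share nothing is read from it. Group means followed LA < MA < HA in 11 of them (21.2%, against 24.4% of all genes) and the reverse in 7. The log2 ratio of HA to LA was above 0 in 67.3% of copies by library total and in 32.7% after TMM scaling, where 70.3% and 52.6% of all genes were above 0. Its median over the copies was 0.10, and -0.06 after TMM scaling. The values of near-identical copies are uncertain, because the treatment of reads that fit several copies is not given in the sources used here.

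**Figure D5:**
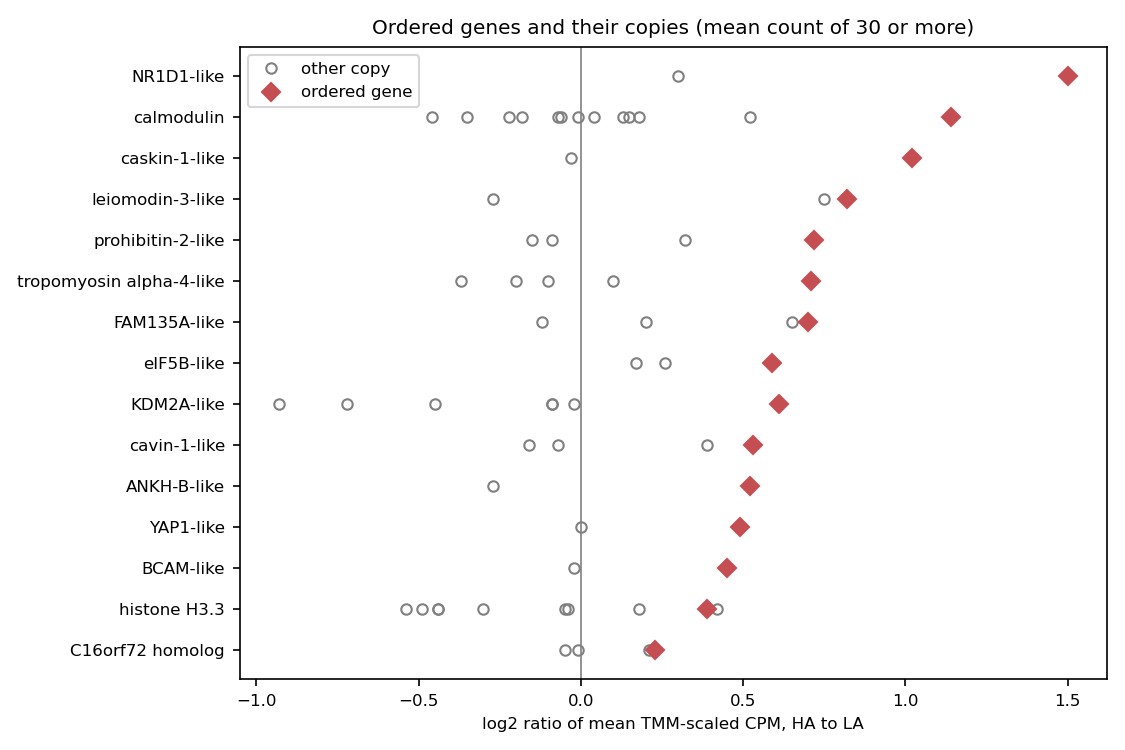
Log2 ratio of mean TMM-scaled CPM in HA to LA for the upward-ordered genes that have other copies with a mean count of 30 or more (red diamonds) and for these copies (open grey circles), 1 line per gene. All diamonds are above 0, at 0.23 to 1.5, while the copies lie on both sides of 0; 1 H3.3 copy (0.42) lies beyond its ordered gene.

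Among genes of amino acid metabolism, the 28 genes of the Met cycle and sulfur amino acids over the minimum had a median log2 (HA / LA) of -0.01 (-0.15 after TMM scaling). None of them was ordered, and none among 18 genes of lysine and branched-chain amino acid breakdown, 27 of amino acid and peptide transport, 60 of amino acid sensing and mTOR, 65 of the fast skeletal sarcomere or 170 of oxidative phosphorylation. With 0.147% of all genes ordered, lists of this size can hold none, and nothing is read from their counts. In the 4 amino acid lists no gene was called by edgeR between any diets. With 0.0835% of all tested genes or fewer called in each comparison, nothing is read from this either.

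At the mean count of 30 the selection passed between genes of like values. Just inside were the leiomodin-3-like gene (40.2), the H3.3 gene (45.8) and the eIF5B-like gene (51.8). Just outside, and ordered upward, were a gene for a homolog of deleted in autism protein 1 (LOC113046009, mean count 25.8, log2 0.90), a maternal B9.15-like gene (LOC113116715, 23.4, log2 1.34) and a CLIP1-like gene (LOC113110370, 18.8, log2 1.19). On the downward side a negative elongation factor A-like gene (LOC113105847, 27.4, log2 -0.62), a Pax-3-like gene (LOC113114739, 13.4, log2 -2.16) and a MAGI1-like gene (LOC113110990, 10.7, log2 -1.16) were outside.

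All 21 ordered genes were among the 23946 genes that passed the filter on low counts for edgeR's quasi-likelihood test. That test called no member at an adjusted p under 0.05 for MA against LA (0.0835% of tested genes called), HA against LA (0%), HA against MA (0.0543%), the diets together (0.0793%) or a linear term in added Met (0%). At an unadjusted p under 0.05 these numbers were 3, 19, 2, 14 and 19 members, beside 11.5%, 6.22%, 10%, 10.8% and 5.23% of all tested genes. DESeq2 called 1 member for MA against LA (1.84% of tested genes called) and 0 for HA against MA (1.24%). It called 2 members, the NR1D1-like gene among them, for HA against LA (0.2%), the diets together (2.27%) and the linear term (0.117%). As the members were chosen with these contrasts, nothing is read from their counts.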

How the data were processed

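The authors deposited read counts and FPKM (reads scaled by gene length and library total) per gene and library, with gene lengths. FPKM equalled count divided by length and library total (largest relative deviation 5.1e-15), so the tests and CPM used the deposited counts. DESeq2 is named in the submitters' processing notes. Which aligner, counting program and strand setting were used is not given in the sources used here. Count columns were tied to diets by the sample descriptions, and 69688 genes were matched by gene ID to the RefSeq table of ASM336829v1.

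CPM was count over library total. TMM factors (0.890 to 1.15) and RLE factors came from edgeR 4.0.16 and DESeq2 1.42.0 in R 4.3.3, with tables made in Python 3.11.15. edgeR's quasi-likelihood test was fitted to all 9 libraries after filterByExpr, with 6 residual degrees of freedom and Benjamini-Hochberg adjustment. It was also run on simulated data, in which the libraries were drawn independently of one another. That run does not cover likeness between libraries such as that of LA1 and HA2, and nothing is read from it. With no more known of the replicates, p-values measure the spread between libraries. Pooled intervals are 95% exact Poisson intervals. Copies share a product name, or a KEGG number and the first word of the name. Library likeness used log2 (CPM + 0.5).

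The members, gene lists and tests were chosen with earlier results of these data known. The rule for named genes took the members with the widest narrower step, the largest ratio or the highest CPM, those in a gene list, those with copies and those next to the count minimum. Of the 21 members so named, 1 is not reported here. Alternatives were other scalings, count minimums of 10 and 100, left-out libraries, no filter, a replicate block and DESeq2. A library total without the 20 most abundant genes was added after seeing the data.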

Additional observations from a re-analysis of the deposited data

How the results depend on the processing

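By construction a member stays ordered when a library is left out, so counts mostly grow then. The minimum of 30 applies to the mean count over the libraries left. A member can thus still be lost, as the downward-ordered gene was without LA2. The 20 upward-ordered genes became 12 under TMM, 10 under RLE, 6 at a mean count of at least 100, 92 with libraries 1 and 2 of each diet only, 489 without LA1 and HA2 together, and 30 to 238 without 1 library (LA1 left out, 148; HA2, 238; MA2, 69; MA1, 57; MA3, 50; LA3, 31). The 1 downward-ordered gene became 3 under TMM and under RLE, 4 at a mean count of at least 10, 0 at 100, 7 with libraries 1 and 2 only, 78 without LA1 and HA2, 3 with the total without the 20 most abundant genes, and 0 to 49 without 1 library (LA1 left out, 49; HA2, 8; HA1, MA1 or MA2, 5; LA3 or MA3, 3; HA3, 2; LA2, 0). The median log2 (HA / LA) of the genes then ordered downward was -1.18 under TMM and RLE, -1.66 at a mean count of at least 10, -1.03 with libraries 1 and 2 only, -1.17 without LA1 and HA2, -0.66 with the total without the 20 most abundant genes, and -1.79 to -0.61 without 1 library. That of the upward set, 0.80, became 0.57 with that total and 0.67 to 0.88 without 1 library. With that total 7 of the 20 upward-ordered genes kept their order, and the NR1D1-like gene was not among them. Of 147 values of log2 (HA / LA) of single members under TMM or without 1 library, 142 moved by less than the spread between libraries. Under TMM fyttd1 became 0.65, the cavin-1-like gene 0.53, the ANKH-B-like gene 0.52, the FAM184B-like gene 0.41 and the H3.3 gene 0.39. None of the values changed sign. Without 1 library the rule fixed the sign in advance, as it had set all HA libraries apart from all LA libraries. Nothing is thus read from how little these values moved. edgeR called 20 genes for MA against LA, 0 for HA against LA, 13 for HA against MA, 19 for the diets together and 0 for the linear term. With no filter on low counts these were 542, 119, 321, 753 and 0, with DESeq2 440, 48, 296, 543 and 28, and without 1 library 0 to 293, 0 to 175, 0 to 75, 0 to 336 and 0 to 38, the highest without LA1 except for HA against MA (75 without MA1). The replicate numbers did not pair the libraries (residual correlations of -0.6 to 0.273), and with the replicate number as a block the counts were 4, 0, 0, 3 and 0. The causes were not tested.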
